A study of Rattus norvegicus with 4 samples.

Results

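Aortic smooth muscle cells that had spent 24 h with interleukin-1b (IL-1b) were compared directly with cells that had spent 24 h with platelet-derived growth factor DD (PDGF-DD). The comparison takes 2 of the 4 arrays of the series, the one labelled as IL-1b treated and the one labelled as PDGF-DD treated, and all 31099 probe sets on them. It sets the end states against each other and does not divide either one by its vehicle. The cells were cultured from the aorta of Sprague-Dawley rats, kept for 3 days in serum and for 3 days without serum, and then treated. IL-1b was given at 2.5 ng/mL in a vehicle of 0.1% albumin (BSA) and 10 mM acetic acid, and PDGF-DD at 30 ng/mL in a vehicle of 0.01% BSA. The other arrays hold cells that received the IL-1b vehicle or the PDGF-DD vehicle alone, and their values stand beside each comparison as the background. RNA was extracted with Trizol and hybridised as biotin-labelled cRNA to Affymetrix rat expression arrays. Each group is 1 array, so there are no replicates, no test was run, and the number of arrays limits the precision of every value. The array, the culture and any shared day or reagent of a pair cannot be told apart from the factor. In bulk RNA, fewer cells of a type and less RNA per cell cannot be told apart either.

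IL-1b is a cytokine of inflammation. Its receptor signals through MyD88 and IRAK proteins to the transcription factor NF-kappaB and to stress-activated MAP kinases, and in vascular smooth muscle it is known for switching on chemokines, prostaglandin synthesis and matrix-degrading enzymes. PDGF-DD binds mainly PDGF receptor beta, a receptor tyrosine kinase that signals through the ERK and PI3-kinase pathways, and PDGF is known in these cells for growth, migration and loss of the contractile programme. Both factors are used to move smooth muscle cells away from the contractile state, so the direct comparison asks how the cells at the end of each treatment differ and where they are alike.

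Genes of NF-kappaB feedback, chemokines and the cell cycle are among the groups described below. The sequences around the start sites of some genes with the widest differences in these groups, among those whose promoter holds the motif, are shown to let the motifs be seen. The MHC class II and the complement and acute phase lists, with higher medians than the NF-kappaB and chemokine lists, were not searched for motifs. The promoters are from RefSeq on the GRCr8 assembly, 250 bases before to 50 bases after each start, 5′ to 3′ on the gene's strand, and the capitals mark the motif (the match nearest the start site where a promoter has more than 1).
Nfkbia, chr6:78597073-78597143, kappaB site: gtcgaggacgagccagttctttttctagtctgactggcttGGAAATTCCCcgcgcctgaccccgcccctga
Cxcl6, chr14:17596455-17596544, kappaB site: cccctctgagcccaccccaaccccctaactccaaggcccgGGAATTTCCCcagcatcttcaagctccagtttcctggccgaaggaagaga
Cxcl2, chr14:17467279-17467368, kappaB site: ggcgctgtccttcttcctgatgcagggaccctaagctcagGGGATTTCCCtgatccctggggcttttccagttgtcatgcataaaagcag
Mki67, chr1:199952647-199952732, cell cycle homology region: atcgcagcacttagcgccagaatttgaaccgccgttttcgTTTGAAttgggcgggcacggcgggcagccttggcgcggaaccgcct
Ect2, chr2:111966736-111966821, cell cycle homology region: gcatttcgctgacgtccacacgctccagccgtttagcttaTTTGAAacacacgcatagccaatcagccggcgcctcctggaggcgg
Mcm6, chr13:42404440-42404527, E2F site: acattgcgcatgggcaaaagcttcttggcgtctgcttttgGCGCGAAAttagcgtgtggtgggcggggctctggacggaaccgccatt
Mcm5, chr19:13488564-13488651, E2F site: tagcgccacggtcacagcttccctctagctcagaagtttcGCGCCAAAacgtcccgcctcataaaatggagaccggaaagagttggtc

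The motif of Nfkbia ends 21 bases before the start site, that of Cxcl2 63 bases before it and that of Mki67 93 bases before it. Motifs were searched on both strands in 1 promoter per gene symbol. A kappaB site, the sequence NF-kappaB binds, was found in 10 of 18 promoters of the NF-kappaB list (55.6%) and 7 of 14 of the chemokine list (50%), beside 7.6% of all 27457 promoters. The AP-1 site TGANTCA was found in 5 of 18 (27.8%) and 3 of 14 (21.4%) of the same lists, beside 7.33% of all. The cell cycle homology region TTTGAA stood in 32 of 48 promoters of the G2 and mitosis list (66.7%), beside 18.1% of all. The E2F site, spelled TTTGGCGC or TTTCGCGC, stood in 13 of 36 promoters of the S phase list (36.1%), beside 0.841%. A CArG box, the site of serum response factor, stood in 1 of 22 promoters of the contractile list (4.55%), beside 1.64%. None of these motifs contains another, each match is a description of these windows, and binding was not measured.

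Intensities are linear and scaled to a common trimmed mean, and a floor of 28.1, the 40th percentile of all probe sets, marks the level below which values were not ordered. Of 14218 named genes on the array, 10508 were above the floor on the IL-1b or the PDGF-DD array. Smooth muscle markers were detected in both end states, with 6 of 7 defining markers above the floor on each factor array. Des (desmin) was under it at 24.6 with IL-1b and 25.3 with PDGF-DD, and Myh11 was barely above it at 29.5 with PDGF-DD. Against their own vehicle, 6 of 7 measured markers were at least 2-fold lower with IL-1b and 6 of 6 with PDGF-DD. The share of probe sets above the floor was 58.3% to 61.5% over the 4 arrays. The ratio of actin signal from the 3′ to the 5′ end, a measure of RNA integrity, was 2.05 with IL-1b and 1.37 with PDGF-DD, and that of GAPDH 1.27 and 1.07. Of the bacterial control transcripts added to each sample, BioC was 2.96-fold higher on the IL-1b array relative to PDGF-DD, and 2.62-fold higher on its vehicle relative to the other vehicle, while the BioB, BioD and Cre spikes were 1.08-fold to 1.33-fold higher on the IL-1b array. The part of these differences in the results was not tested.

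After 24 h the IL-1b array stood above the PDGF-DD array in acute phase, chemokine, MHC class II and protease genes, and below it in nearly the whole cell division programme and in sterol synthesis. A gene is called higher or lower where IL-1b and PDGF-DD were at least 2-fold apart, a rule of size and not a test, and counts of list members follow the same rule. By it, 912 of 10508 genes (8.68%) were higher with IL-1b than with PDGF-DD and 745 (7.09%) were lower, 1657 (15.8%) in all. These shares are the background for the counts of list members higher or lower between the factors. Several lists stood near them, and a count near them is no result about its list. Between the vehicle arrays 1087 of 10389 genes (10.5%) met the same rule, 485 (4.67%) higher and 602 (5.79%) lower on the IL-1b side. The median log2 ratio of IL-1b over PDGF-DD was 0.08 over all genes, and 169 genes were at least 8-fold apart, 74 higher and 95 lower. Between the vehicles, 62 genes were at least 8-fold apart. Across the 9477 genes above the floor on both factor arrays the log2 intensities correlated with r = 0.879, and across 9512 genes on both vehicle arrays with r = 0.924, where genes are not independent replicates. The excess of higher over lower genes depended on the scaling: with the values as deposited, 784 were higher and 864 lower. The genes below were named by size and list membership or because they are widely used markers. C3, Lcn2, RT1-DMa, Ciita, Ccl2, Cxcl1, Cxcl10, Cxcl13, Rela, Il33, Odc1, Amd1, Slc7a1, Mmp2, Adam10, Timp1, Col1a1, Col6a2, Col18a1, Tnfaip6, Kif23, Cenpa, Slbp, Ung, Pola2, Egr1, Csrp2, Tgfb1 and Sod2 were chosen after their values were seen.

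**Figure D1:**
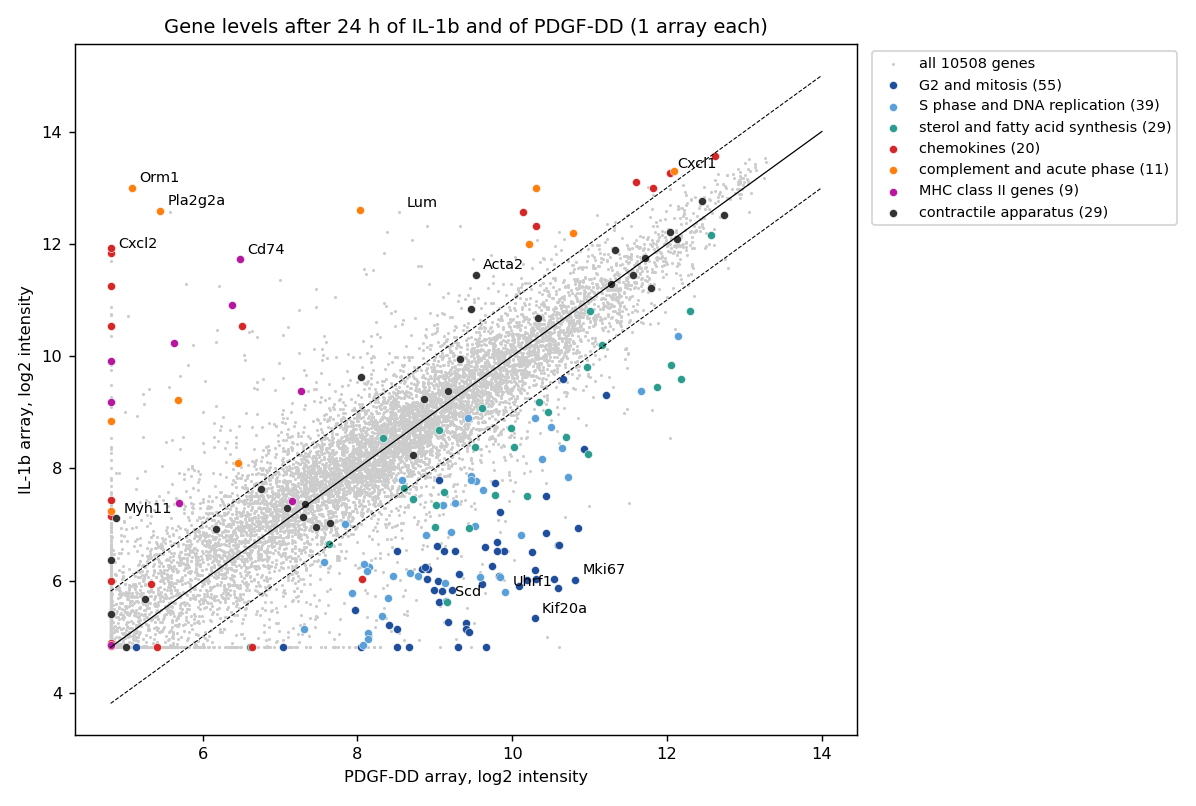
Log2 intensity on the IL-1b array (vertical axis) against the PDGF-DD array (horizontal axis) for the 10508 genes that exceeded the floor on either array, with members of 7 gene lists coloured and values under the floor drawn at it; the solid line marks equal levels and the dashed lines 2-fold. The G2 and mitosis and S phase genes lie below the lower dashed line in 54 of 55 and 36 of 39 cases, and the 11 complement and acute phase genes lie above the upper one.

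Among genes above the floor on both factor arrays, the 3 with the widest differences were Orm1, Pla2g2a and Ass1, and all 3 were higher with IL-1b. Values are given throughout in 1 order: first the vehicle of IL-1b, then IL-1b itself, then the vehicle of PDGF-DD, then PDGF-DD itself. Orm1 (orosomucoid, an acute phase plasma protein) had intensities of 33.5, 8189, 618 and 34.0. The IL-1b array was 241-fold above the PDGF-DD array, although the IL-1b vehicle was 18.5-fold below the PDGF-DD vehicle. Pla2g2a, a secreted phospholipase A2, had 1.51, 6160, 350 and 43.7, a 141-fold difference between the factors. Ass1, the enzyme that makes argininosuccinate on the way to arginine, had 9.45, 6059, 44.3 and 48.0. Here the factors were 126-fold apart and the other 3 arrays were all low. Egln3, an oxygen-sensing prolyl hydroxylase, had 14.4, 2489, 32 and 55.0 (45.3-fold), and Mgst1, a microsomal glutathione transferase, 90.8, 2630, 108 and 128 (20.6-fold). In both the IL-1b array stood alone above 3 similar arrays.

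All 11 measured complement and acute phase genes were higher with IL-1b, with a median log2 ratio of 2.69 beside 0.08 over all genes. Between the vehicles the same list ran the other way, with a median of -2.27. Lbp, which binds bacterial lipopolysaccharide, had 338, 6215, 1055 and 262 (23.7-fold), and Hp (haptoglobin) had 68.6, 592, 403 and 51.4 (11.5-fold). Serping1, the C1 inhibitor, had 17.0, 460, 80.1 and 10.1, at least 16.4-fold since PDGF-DD was under the floor. In each of the 3 genes the PDGF-DD vehicle lay above PDGF-DD, and IL-1b was the highest array. C3, the central complement component, had 419, 8186, 5704 and 1270, so that its level with IL-1b was within 2-fold of that in the PDGF-DD vehicle. Lcn2 (lipocalin 2) had 1128, 10052, 9706 and 4364, a log2 difference of 1.2 between the factors. IL-1b was the highest of the 4 arrays for 11 of 11 genes of this list, beside 28.8% of the 10885 genes above the floor anywhere. Outside the list, the acute phase gene Saa3 had 23.9, 1717, 21.4 and 11.7 (at least 61.1-fold), and the secreted protein gene Wfdc18 had 8.25, 3318, 33.5 and 23.8 (at least 118-fold).

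Genes of MHC class II, which present peptides to helper T cells, had the highest list median of those described here, a log2 ratio of 4.37 over 9 measured genes, of which 7 were higher. Their vehicle median was -2.06. Cd74, the invariant chain that guides class II molecules, had 106, 3379, 584 and 89.8 (37.6-fold). RT1-Da, a class II alpha chain, had 93.5, 1919, 438 and 83.5 (23.0-fold), and RT1-Bb, a beta chain, had 34.5, 964, 101 and 21.5 (at least 34.3-fold). All 3 had the same order, IL-1b far above the PDGF-DD vehicle, and the IL-1b vehicle near PDGF-DD. Ciita, the master transactivator of class II genes, had 22.7, 167, 86.1 and 51.9, a log2 difference of 1.69. RT1-DMa, part of the peptide-loading complex, had 43.0, 172, 171 and 142 and was less than 2-fold apart between the factors. RT1-Ba had 38.5, 1210, 250 and 49.7 (24.3-fold), but log2 ratios from its further probe sets ran from -0.67 to 0.53, and the median of its probe sets gave -0.07. Class II genes are also expressed by immune cells, so leukocyte markers are given beside them. Of 18 leukocyte markers, 6 were above the floor with IL-1b and 1 with PDGF-DD, and their summed intensity, with values under the floor set to it, was 3123 and 1594, beside 1618 and 1698 in the IL-1b and PDGF-DD vehicles. Lyz2 (lysozyme) accounts for most of the gap, with 28, 1305, 10.8 and 2.59. Cd14 was well above the floor on all 4 arrays, with 1121, 1333, 1220 and 1117. Adgre1, Cd4 and Aif1 reached 41.7, 38.3 and 38.2 with IL-1b and were under the floor on the other arrays. Ptprc (CD45), Cd68, Csf1r and Tyrobp were under the floor on all 4 arrays. The part of these markers in the class II values was not tested.

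MHC class I and immunoproteasome genes had a median of 0.45, and 1 of 16 was higher with IL-1b, beside 8.68% of all genes. That gene, RT1-T24-4, had 587, 1015, 593 and 419 (2.42-fold). Psmb9, an immunoproteasome subunit, had 323, 792, 439 and 457, 1.73-fold higher with IL-1b. Interferon-stimulated genes had a median of 0.04, with 2 of 18 higher and 3 lower, beside 8.68% and 7.09% of all genes. Usp18, which restrains interferon signalling, had 31.6, 43.6, 47.8 and 125, 2.87-fold lower with IL-1b. Isg15, a ubiquitin-like protein, had 57.2, 68.3, 149 and 168 (2.46-fold lower), and Irf8, a transcription factor, 3.33, 92.6, 88.8 and 35.6 (2.60-fold higher). The levels of Isg15 followed the vehicles, which were 2.61-fold apart.

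Among chemokines, the secreted attractants of leukocytes, 13 of 20 were higher and 2 lower, with a median log2 ratio of 1.36 beside -1.24 between the vehicles. Cxcl2, a neutrophil attractant, had 12.9, 3657, 17.3 and 17.1, at least 130-fold higher with IL-1b. Cxcl6, of the same family, had 21.2, 3901, 42.9 and 23.8 (at least 139-fold), and Ccl5, which attracts T cells, had 23.7, 2444, 22.5 and 11.6 (at least 87.0-fold). For these 3 the PDGF-DD array was under the floor. Ccl20 had 25.6, 1487, 277 and 12.9 (at least 53.0-fold), and Cxcl3 had 5.86, 1483, 76.1 and 90.8 (16.3-fold). Log2 ratios from the further probe sets of Cxcl3 ran from 1.25 to 4.62. By contrast, the monocyte attractant Ccl2 had 638, 12106, 9303 and 6317, and Cxcl1 had 590, 9798, 7358 and 4214, so that the IL-1b vehicle was the low array and the factors were 0.94 and 1.22 apart on the log2 scale. Cxcl10, an interferon-inducible chemokine, ran the other way at 6.85, 23.4, 68.1 and 100, and so did the B cell attractant Cxcl13 at 1325, 65.1, 1218 and 267. In Cxcl13 both factor arrays lay below both vehicles.

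The NF-kappaB list, which holds subunits of the factor and its feedback inhibitors, had 14 of 23 members higher with IL-1b and 0 lower. Its median was 1.21, beside -0.50 between the vehicles. Map3k8, a kinase released when the p105 precursor is degraded, had 16.3, 1412, 231 and 72.5 (19.5-fold). Zc3h12a, an RNase that degrades inflammatory transcripts, had 95.5, 1876, 281 and 177 (10.6-fold), and Nfkbia, the inhibitor IkB-alpha, had 264, 1734, 620 and 346 (5.02-fold). Birc3, a ubiquitin ligase of TNF receptor signalling, had 71.2, 740, 312 and 104 (7.11-fold). Bcl3, an atypical IkB protein, had 2.47, 192, 71.9 and 47.1 (4.07-fold, with other probe sets at 1.21 and 1.27). In all 5 the order was the same, with IL-1b highest, the PDGF-DD vehicle next, then PDGF-DD and then the IL-1b vehicle. The subunit Rela itself had 604, 850, 609 and 384, a log2 difference of 1.15. Ripk2, a kinase of innate immune receptors, had 281, 2593, 346 and 1831, high with both factors and 1.42-fold apart.

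Of 14 measured cytokines 6 were higher and 0 lower (median 0.75). Csf3 (G-CSF) had 14.2, 1885, 21.6 and 7.74, at least 67.1-fold, and Csf2 (GM-CSF) had 2.93, 620, 19.9 and 3.43, at least 22.1-fold. Both were under the floor on the other 3 arrays. Il6 had 16.1, 3645, 445 and 324 (11.2-fold), with a difference of at least 15.9-fold between the vehicles in the other direction. Il11 had 3.93, 127, 4.10 and 134, under the floor in both vehicles and 1.05-fold apart between the factors. Il33, an alarmin, had 740, 729, 175 and 1269, a log2 ratio of -0.80, with the PDGF-DD vehicle as the low array.

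Of the receptors for cytokines and the proteins of IL-1 signalling, 7 of 20 were higher and 0 lower, with a median of 0.75. Il1r1, the signalling receptor of IL-1, had 142, 2748, 599 and 859 (3.20-fold, with other probe sets from 0.98 to 1.46), and the lowest array was the IL-1b vehicle. Tnfrsf9, a T cell costimulatory receptor, had 39.2, 700, 121 and 47.4 (14.7-fold), and the chain Il4r had 148, 410, 199 and 82.0 (4.99-fold). Il6st, the gp130 chain shared by IL-6 type cytokines, had 845, 4285, 1643 and 1280 (3.35-fold, with other probe sets from 0.88 to 1.68). Il1rl1, the IL-33 receptor, had 28.6, 655, 178 and 566 and was 1.16-fold apart between the factors, with another probe set at -0.65.

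Among adhesion molecules 4 of 13 were higher and 1 lower. Vcam1, which holds leukocytes on activated cells, had 498, 2975, 1998 and 295 (10.1-fold), and Selp (P-selectin) had 11.1, 797, 126 and 52.1 (15.3-fold), although its other probe set gave a log2 ratio of 0.51. Icam1 had 769, 2213, 1739 and 1056 (2.10-fold), a log2 ratio of 1.07 that was 0.98, under 2-fold, with the values as deposited. In Vcam1 and Icam1 the PDGF-DD vehicle was within 1.5-fold of the IL-1b array, and PDGF-DD lay below its vehicle. Cd44, the hyaluronan receptor, had 70.5, 1480, 488 and 1487, 1.00-fold apart between the factors. Integrins had a median of 0.05, with 3 of 11 higher and 1 lower, beside 8.68% and 7.09% of all genes. Itga6, a laminin-binding subunit, had 228, 43.2, 238 and 254 (5.88-fold lower with IL-1b, with other probe sets at -1.66 and -0.99), so the IL-1b array alone was low. Itgb3 had 256, 109, 18.0 and 28.4 (3.84-fold higher), following vehicles that were at least 9.12-fold apart.

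Prostanoid synthesis genes had a median of 0.27, with 2 of 9 higher and 0 lower. Ptges, the inducible prostaglandin E synthase, had 5.06, 335, 8.82 and 1.79, at least 11.9-fold higher with IL-1b, with another probe set at 2.57. Ptgs2 (cyclooxygenase 2), the step before it, had 364, 2275, 692 and 1522 and was 1.49-fold apart, with both factors above both vehicles. In the nitric oxide, arginine and polyamine list 5 of 15 were higher and 2 lower. Nos2, the inducible nitric oxide synthase, had 8.39, 33.2, 19.2 and 14.9, barely above the floor with IL-1b alone. Arg1 (arginase) had 130, 1115, 373 and 186 (6-fold higher), and Gch1, which starts synthesis of the cofactor of nitric oxide synthase, had 22.4, 173, 111 and 51.1 (3.38-fold higher, with another probe set at 0.63, under 2-fold). The polyamine enzymes Odc1, with 1560, 1324, 1526 and 2595, and Amd1, with 397, 429, 485 and 975, lay highest with PDGF-DD, as did the arginine transporter Slc7a1, with 415, 523, 515 and 1347. Their log2 ratios were -0.97, -1.18 and -1.36.

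**Figure D2:**
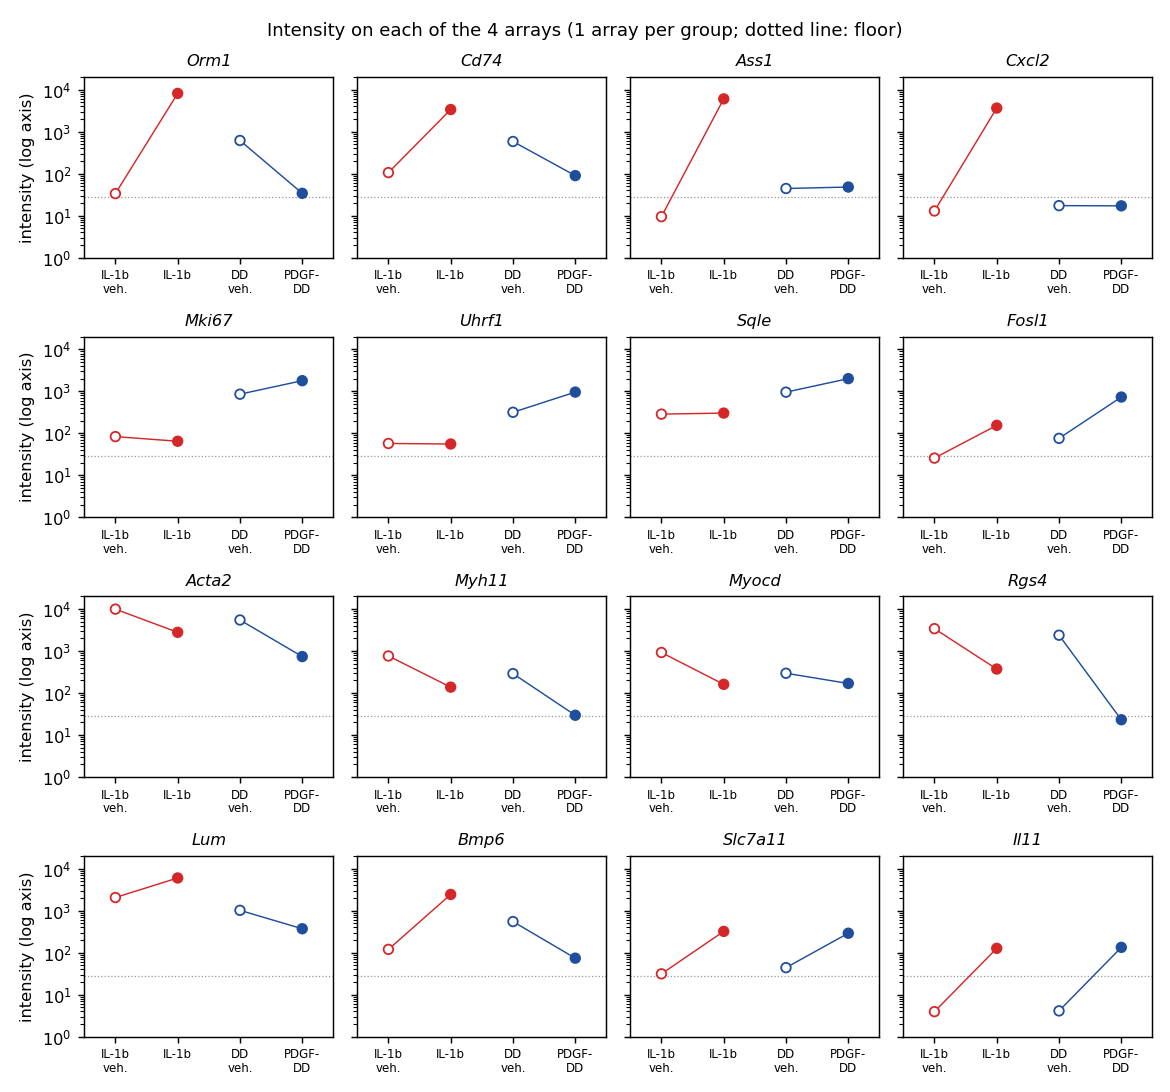
Intensity (log axis) of 16 genes on each of the 4 arrays, 1 point per array, with open points for the vehicles, filled points for the factors (IL-1b side red, PDGF-DD side blue) and a dotted line at the floor of 28.1. Orm1, Cd74, Ass1 and Cxcl2 are highest with IL-1b, Mki67, Uhrf1, Sqle and Fosl1 are highest with PDGF-DD, and Slc7a11 and Il11 are at like levels with both factors.

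In the list of matrix metalloproteinases and ADAMTS proteases, which cut collagens and proteoglycans, 11 of 24 members were higher and 3 lower, with a median of 0.94 beside 0.41 between the vehicles. Mmp3 (stromelysin) had 9.95, 547, 17.3 and 8.09, at least 19.5-fold, and Mmp13 (a collagenase) had 3.29, 284, 9.66 and 4.55, at least 10.1-fold. Mmp2 (gelatinase A) had 621, 2493, 610 and 488, a log2 difference of 2.35, with another probe set at 0.70. In these 3 the vehicles were alike or both under the floor. Mmp9 (gelatinase B) had 0.742, 40, 1.95 and 1.44, just above the floor with IL-1b. The aggrecanases Adamts5, with 569, 1392, 258 and 100 (13.9-fold), and Adamts8, with 51.4, 489, 18.4 and 35.7 (13.7-fold), were higher with IL-1b. Adamts15 had 529, 448, 118 and 21.9, at least 16.0-fold higher, with IL-1b near its own vehicle and PDGF-DD under the floor. Adam10, a membrane sheddase, ran the other way at 122, 184, 287 and 493. Among protease inhibitors and plasminogen genes, Plat (tissue plasminogen activator) had 289, 5121, 1037 and 644 (7.95-fold higher). Serpine2, an inhibitor of thrombin and plasminogen activators, had 29.3, 376, 594 and 1044 and was 2.78-fold lower, with vehicles 20.3-fold apart. Timp1 had 2366, 9035, 7086 and 6310, a log2 difference of 0.52. The lysosomal protease list had a median of 0.48, with 2 of 12 higher, one of them Ctso at 152, 241, 98.0 and 30.3 (7.95-fold).

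The medians of the matrix lists lay on the IL-1b side, and PDGF-DD was the lowest of the 4 arrays for 14 of 21 collagens and 14 of 23 elastic fibre genes, beside 29.5% of all genes. Of the collagens, 8 of 21 were higher and 5 lower (median 0.58, vehicles 0.30). Col14a1, a fibril-associated collagen, had 1980, 1894, 2863 and 331 (5.72-fold higher), and Col12a1 had 783, 1222, 273 and 194 (6.30-fold). Basement membrane Col4a2 had 2215, 1698, 1494 and 520 (3.27-fold). In Col14a1 and Col4a2 the PDGF-DD array stood below 3 similar arrays. The fibrillar collagen Col1a1 had 9091, 8460, 7156 and 4731, a log2 difference of 0.84, with another probe set at 1.19. Col15a1, a basement membrane zone collagen, had 46.6, 82.7, 279 and 1036, 12.5-fold lower with IL-1b, and another probe set gave -3.63. Col6a2 had 471, 388, 601 and 1015, a log2 ratio of -1.39 (another probe set gave -0.83), and Col18a1 had 991, 1379, 2363 and 3000, a log2 ratio of -1.12.

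Elastic fibre and crosslinking genes were higher in 6 of 23 and lower in 1 (median 0.68). Eln (elastin) had 8140, 3121, 2513 and 439 (7.10-fold higher with IL-1b), although a second probe set gave a log2 ratio of 0.13. Mfap4, a microfibril protein, had 6093, 2363, 2451 and 699 (3.38-fold). In both genes the IL-1b vehicle was the highest array and PDGF-DD the lowest. Among proteoglycans, 6 of 25 were higher and 2 lower. Lum (lumican), which regulates collagen fibrils, had 2067, 6041, 1022 and 372 (16.2-fold), and Fmod (fibromodulin) had 7130, 4302, 3190 and 417 (10.3-fold). Aspn (asporin) had 926, 232, 50.1 and 57.6 (4.03-fold), with vehicles 18.5-fold apart. Tnfaip6, which modifies hyaluronan, was highest with PDGF-DD at 481, 1764, 3262 and 4032. Among glycoproteins 3 of 19 were higher: Lama4 (laminin alpha 4) with 50.2, 327, 142 and 19.8, Thbs2 (thrombospondin 2) with 87.7, 935, 2146 and 127, and Spon1 with 1209, 1312, 244 and 189. The vehicles of Thbs2 were 24.5-fold apart in the other direction. Markers that fibroblasts share with these matrix genes also stood on the IL-1b side in 4 of 11 measured members, with a summed intensity of 22263 with IL-1b and 17098 with PDGF-DD beside 19727 and 20556 in the vehicles. Lum, which is also in the proteoglycan list, differed between the factors by more than these sums did, so the sums without Lum do not stand on the IL-1b side. Dpt (dermatopontin) had 17.7, 1288, 67.3 and 104 (12.4-fold). The part of a shift between cell types in these lists was not tested.

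**Figure D3:**
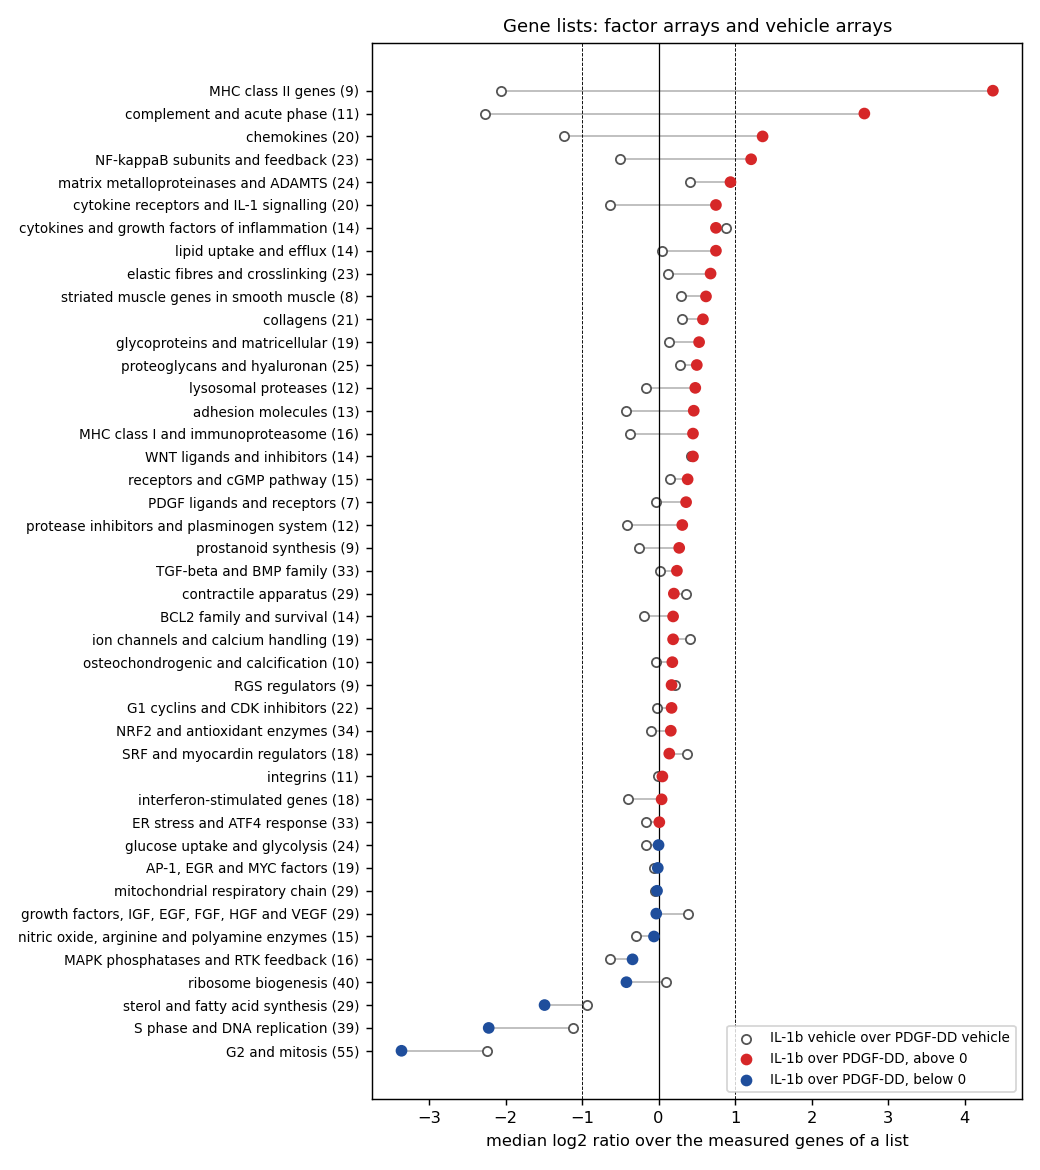
Median log2 ratio of the measured members of each pathway list (number of members in brackets), with filled points for IL-1b over PDGF-DD (red above 0, blue below) and open points for the ratio of the vehicles in the same direction; dashed lines mark 2-fold. The MHC class II, complement and chemokine medians change side between the vehicle and factor arrays, from -2.06, -2.27 and -1.24 to 4.37, 2.69 and 1.36, while the G2 and mitosis and S phase medians stay on the PDGF-DD side, at -2.24 and -1.12 in the vehicles and -3.36 and -2.22 with the factors.

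Cell division genes stood lower with IL-1b almost throughout. Of 55 genes of G2 and mitosis, 54 were lower and 0 higher, with a median log2 ratio of -3.36. Between the vehicles 50 of 55 were at least 2-fold lower on the IL-1b side, with a median of -2.24. Mki67, the proliferation antigen Ki-67, had 83.6, 64.8, 858 and 1799 (27.8-fold lower with IL-1b). Kif20a, a kinesin of the central spindle, had 62.3, 40.1, 643 and 1254 (31.3-fold), and Ect2, which positions the cleavage furrow, had 82.8, 58.4, 853 and 1545 (26.4-fold). Both IL-1b side arrays were low and both PDGF-DD side arrays high, with PDGF-DD above its vehicle. The mitotic kinase Ttk had 36.7, 20.9, 272 and 809 (at least 28.8-fold, with another probe set at -2.61). The mitotic cyclin Ccnb1 had 85.1, 65.0, 562 and 1267 (19.5-fold), and the kinetochore kinase Bub1 had 81.4, 59.5, 443 and 1089 (18.3-fold). PDGF-DD was the highest of the 4 arrays for 54 of 55 genes of this list, beside 29.4% of all genes, and for 52 of 55 the factors were farther apart than the vehicles, beside 59.6% of all genes. Kif23, a central spindle kinesin, had like levels in its vehicles, with 783, 181, 736 and 1380, so that the IL-1b array alone was low. The member not called, the centromeric histone Cenpa, had 13.6, 2.30, 40.2 and 35.3, at least 1.26-fold lower with IL-1b, where it was under the floor.

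Genes of S phase and DNA replication were lower with IL-1b in 36 of 39 members and higher in 0, with a median of -2.22. Between the vehicles 22 of 39 were lower, with a median of -1.12. Uhrf1, which carries DNA methylation through replication, had 57.3, 55.7, 318 and 961 (17.3-fold). Tk1 (thymidine kinase) had 64.2, 66.5, 442 and 916 (13.8-fold), and the licensing factor Cdt1 had 57.5, 49.5, 205 and 568 (11.5-fold). Mcm6, a subunit of the replicative helicase, had 143, 113, 433 and 1106 (9.80-fold). In these 4 genes the IL-1b array was within 1.5-fold of its vehicle, and PDGF-DD was above its own. Ccne2 (cyclin E2) had 63.7, 66.9, 208 and 769 (11.5-fold), but another probe set gave -0.08. PDGF-DD was the highest array for 39 of 39 genes of the list. The 3 members within 2-fold were Slbp, Ung and Pola2, with log2 ratios of -0.54, -0.79 and -0.84.

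G1 cyclins and inhibitors of cyclin-dependent kinases had 4 of 22 higher and 4 lower (median 0.17). Ccnd1 (cyclin D1), which drives entry into the cycle, had 201, 2117, 1173 and 4102, so that the IL-1b array was 1.94-fold below the PDGF-DD array. Its further probe sets gave log2 ratios of -1.61 and -1.41, and the values as deposited gave -1.04, each past 2-fold. Cdkn1a, the inhibitor p21, had 937, 2534, 678 and 863 (2.94-fold higher with IL-1b), although another probe set gave 0.37. Gadd45b, a stress-inducible regulator, had 665, 977, 762 and 186 (5.25-fold higher), where PDGF-DD was the low array. Rbl1 (p107), a pocket protein expressed in cycling cells, had 117, 112, 271 and 484 (4.34-fold lower), and the inhibitor Cdkn2c (p18) had 476, 253, 562 and 715 (2.83-fold lower; another probe set gave 0.58).

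The list of AP-1, EGR and MYC factors, which also holds the chromatin protein Hmga1, showed members on either side. Of 19 genes, 2 were higher with IL-1b and 4 lower (median -0.01). Jun had 364, 172, 220 and 994 (5.77-fold lower with IL-1b), with 2 further probe sets at -1.76 and -1.69. Fosl1 (FRA-1), another AP-1 subunit, had 25.7, 155, 75.9 and 733 (4.73-fold lower). Hmga1, a chromatin architectural protein, had 48.7, 929, 312 and 2117 (2.28-fold lower), with both factors above both vehicles. Maff, a small MAF protein, had 44.3, 451, 122 and 147 (3.07-fold higher), and Fosl2 had 71.7, 179, 96.4 and 72.3 (2.48-fold higher, with another probe set at 0.68). Egr1 had 696, 918, 344 and 1418, within 2-fold at -0.63. In the feedback genes of MAP kinase and receptor tyrosine kinase signalling, 1 of 16 was higher with IL-1b and 5 lower (median -0.34). Dusp5, a phosphatase of ERK, had 15.2, 26.7, 21.5 and 215 (at least 7.64-fold lower), Dusp6, another, 109, 657, 258 and 1624 (2.47-fold lower), and Spry2 (Sprouty 2) 453, 790, 861 and 2049 (2.59-fold lower). Dusp5 was above the floor with PDGF-DD alone, whereas Dusp6 was above both vehicles with either factor. Spry1 was the member on the other side, with 930, 226, 296 and 35.5 (6.37-fold higher with IL-1b).

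Of sterol and fatty acid synthesis genes 21 of 29 were lower and 0 higher (median -1.49), and 14 of 29 were lower between the vehicles (median -0.94). PDGF-DD was the highest array for 27 of 29. Scd (stearoyl-CoA desaturase) had 11.9, 49.4, 256 and 573 (11.6-fold lower), and Sqle (squalene epoxidase), a control point of cholesterol synthesis, had 287, 304, 959 and 2014 (6.63-fold). Msmo1, a sterol demethylating oxidase, had 633, 775, 2097 and 4661 (6.01-fold). In these genes both arrays of the PDGF-DD side lay above both arrays of the IL-1b side. Fads1, which makes polyunsaturated fatty acids, had 844, 182, 700 and 1173 (6.45-fold), with the vehicles 1.21-fold apart and IL-1b alone low. The cytochrome gene Cyp3a9 had the widest lower difference above the floor, with 5.29, 31.8, 260 and 1396 (43.9-fold).

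For ribosome biogenesis genes 2 of 40 were lower by the 2-fold rule, beside 7.09% of all genes. The ratio was below 1 by any amount in 36 of the 40, and the share of all genes below 1 was not counted. The list median was -0.42, beside 0.08 over all genes and 0.10 between the vehicles. Nop56, a component of the small nucleolar particles, had 784, 781, 805 and 1825 (2.34-fold lower), and Nolc1, a nucleolar chaperone, had 351, 369, 459 and 879 (2.38-fold lower, with other probe sets at -2.29 and -0.75). PDGF-DD was the highest array for 34 of 40, beside 29.4% of all genes. With the values as deposited the all-gene median moved from 0.08 to -0.00. The mitochondrial respiratory chain had 0 of 29 genes at least 2-fold apart and a median of -0.02.

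Amino acid and glucose metabolism held single genes that differed. The ER stress and ATF4 list had a median of 0.01, with 2 of 33 higher and 3 lower, beside 8.68% and 7.09% of all genes. Psat1, in serine synthesis, had 236, 214, 401 and 1387 (6.47-fold lower with IL-1b), Phgdh, the first enzyme of that pathway, had 767, 376, 523 and 1002 (2.67-fold lower), and Mthfd2, a mitochondrial folate enzyme, had 127, 212, 475 and 622 (2.93-fold lower). Glycolysis genes had a median of -0.00, with 4 of 24 higher and 2 lower. Hk2 (hexokinase 2) had 27.8, 32.9, 46.4 and 218 (6.63-fold lower), while Eno2, an enolase, had 1218, 1982, 703 and 325 (6.09-fold higher) and Ldhb, a lactate dehydrogenase chain, had 1098, 1514, 1131 and 381 (3.98-fold higher). Hk2 was high with PDGF-DD alone, and Ldhb was low with PDGF-DD alone. Tfrc (transferrin receptor), counted among the reference genes, had 163, 207, 266 and 605 (2.93-fold lower). The other 11 reference genes were within 2-fold, and the median of the 12 was 0.18.

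The contractile apparatus was low in both end states, and Myh11 and Acta2 were lower still with PDGF-DD. Of 31 genes above the floor anywhere, 27 lay below both vehicles with both factors, beside 13.7% of all genes. Between the factors 5 of 29 were higher and 0 lower, with a median of 0.20 beside 0.36 between the vehicles. Myh11 (smooth muscle myosin heavy chain) had 764, 138, 290 and 29.5 (4.67-fold higher with IL-1b), and Acta2 (smooth muscle alpha-actin) had 9980, 2798, 5504 and 739 (3.78-fold). Mylk, the kinase that starts contraction, had 4445, 789, 3472 and 265 (2.98-fold), although another probe set gave 0.37. The regulatory light chain Myl9 had 8133, 1827, 6093 and 711 (2.57-fold), and Actg2 (smooth muscle gamma-actin) had 894, 82.7, 499 and 26.9 (at least 2.94-fold). These 5 shared 1 order, with both vehicles above IL-1b and IL-1b above PDGF-DD. Tagln (SM22), with 7611, 3786, 7131 and 2559 (1.48-fold), Cnn1 (calponin), with 5228, 982, 5134 and 642 (1.53-fold), and Lmod1, with 1010, 121, 488 and 72.1 (1.68-fold), had that order within 2-fold. Synpo2, an actin-bundling protein, had 1615, 141, 357 and 157, and Csrp2 had 1930, 130, 362 and 201. The vehicles were 4.53-fold apart in Synpo2 and the factors 1.11-fold, but its further probe sets gave log2 ratios of -0.68 and -0.50 between the factors.

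Myocd and Srf, regulators of the contractile programme, were nearly equal between the factors on the probe sets the genes were read from. Myocd (myocardin), the coactivator of serum response factor, had 924, 161, 296 and 169 (1.05-fold apart between the factors, 3.13-fold between the vehicles). Srf had 988, 568, 922 and 579 (1.02-fold apart, with another probe set at a log2 ratio of 0.46). Klf4, which represses contractile genes, had 27.6, 892, 444 and 1283, 1.44-fold lower with IL-1b and highest with PDGF-DD. Klf15 had the widest difference of the list, with 440, 976, 424 and 93.5 (10.4-fold higher with IL-1b), and another probe set gave a log2 ratio of 2.60. It lay above both vehicles with IL-1b and below both with PDGF-DD. Klf5 had 28.8, 24.4, 32.1 and 82.8, at least 2.95-fold lower with IL-1b, whereas its other probe sets gave -0.63 and -0.16. The striated muscle gene Fbxl22, an F-box protein, had 1487, 153, 1212 and 28.5 (5.37-fold higher), and Acta1 (skeletal alpha-actin) had 4782, 261, 3526 and 117 (2.23-fold higher).

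In the list of vascular receptors and the cGMP pathway 5 of 15 were higher with IL-1b and 1 lower. Agtr1a, the angiotensin II receptor, had 16.9, 111, 316 and 23.7 (at least 3.95-fold higher), P2ry2, a nucleotide receptor, had 43.2, 446, 114 and 116 (3.84-fold), and the natriuretic peptide receptor Npr1 had 107, 89.9, 165 and 30.8 (2.91-fold). Agtr1a was high in the PDGF-DD vehicle, whereas P2ry2 stood out with IL-1b alone. Of 9 RGS proteins 2 were higher and 0 lower, beside 8.68% and 7.09% of all genes. Rgs4, which quenches Gq signalling, had 3421, 373, 2388 and 23.1 (at least 13.3-fold higher with IL-1b, with another probe set at 2.22). Rgs5 had 1868, 136, 375 and 65.7 (2.07-fold, a log2 ratio of 0.96 with the values as deposited), and Rgs2 had 140, 3335, 1573 and 3251 (1.03-fold apart, with vehicles 11.2-fold apart). Of 19 ion channel and calcium handling genes 2 were higher and 1 lower, beside 8.68% and 7.09% of all genes (median 0.19). Cacnb3, a calcium channel beta subunit, had 456, 353, 191 and 79.6 (4.44-fold higher), and the sodium-calcium exchanger Slc8a1 had 818, 124, 276 and 332 (2.68-fold lower, a log2 ratio of -0.71 as the median of its probe sets).

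Receptors of both factors, Il1r1 above and the PDGF receptors here, stood higher with IL-1b on the probe sets the genes were read from. A further probe set of Il1r1 and both further ones of Pdgfrb were on the same side but under 2-fold. Pdgfrb, the receptor of PDGF-DD, had 1503, 1318, 1018 and 558 (2.36-fold higher with IL-1b), with other probe sets at 0.16 and 0.80. Pdgfra had 84.0, 377, 228 and 140 (2.69-fold higher), and the ligand Pdgfc had 82.3, 29.1, 27.1 and 64.5 (2.21-fold lower). In the TGF-beta and BMP family 5 of 33 were higher and 2 lower, beside 8.68% and 7.09% of all genes (median 0.24). Bmp6, a ligand, had 120, 2446, 552 and 74.0 (33.0-fold higher), with other probe sets between 2.03 and 5.23. The ID proteins, targets of BMP signalling, went apart: Id2 had 260, 434, 79.2 and 75.2 (5.77-fold higher), and Id1 had 28.4, 135, 136 and 467 (3.45-fold lower). Tgfb1 had 449, 1201, 349 and 460, a log2 difference of 1.39.

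In the WNT list 5 of 14 were higher with IL-1b and 1 lower (median 0.45, vehicles 0.43). Wnt4, a ligand, had 36.0, 861, 73.9 and 15.1 (at least 30.7-fold). The secreted inhibitors Frzb, with 2512, 4759, 2302 and 335 (14.2-fold), and Sfrp2, with 939, 1231, 951 and 269 (4.58-fold), and the receptor Fzd1, with 1647, 2112, 823 and 209 (10.1-fold), were lowest with PDGF-DD and highest with IL-1b. Of other growth factor genes 4 of 29 were higher and 7 lower. Angptl4, a lipoprotein lipase inhibitor, had 171, 1178, 287 and 58.8 (20-fold higher). Flt1 (VEGF receptor 1) had 13.1, 22.5, 87.3 and 537 (at least 19.1-fold lower, with other probe sets at -2.61 and -2.49). Hbegf had 379, 161, 189 and 506 (3.15-fold lower). Flt1 is also an endothelial marker, and of the 11 endothelial markers on the array 2 were above the floor with IL-1b and 4 with PDGF-DD, with Pecam1, Kdr, Tie1 and Vwf under it on all 4 arrays.

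Fabp4, a fatty acid carrier, had 2.67, 149, 0.322 and 0.746 (at least 5.31-fold higher), and the cholesterol exporter Abcg1 had 45.5, 111, 49.1 and 26.7 (at least 3.96-fold), though its other probe set gave 0.19. Among NRF2 and antioxidant genes 6 of 34 were higher and 5 lower. Slc7a11, the cystine transporter, had 31.3, 322, 44.0 and 291 (1.11-fold apart), whereas Gsr (glutathione reductase) had 77.4, 78.2, 129 and 283 (3.62-fold lower) and Sod2 had 1236, 8139, 7543 and 3643, a log2 difference of 1.16. Bcl2l11 (BIM), which promotes cell death, had 382, 348, 301 and 86.3 (4.03-fold higher), where PDGF-DD was the low array and another probe set gave 0.39. In the calcification list Enpp1, which makes the inhibitor pyrophosphate, had 127, 128, 97.7 and 336 (2.62-fold lower with IL-1b), and its exporter Ankh had 203, 125, 120 and 357 (2.86-fold lower). Both were high with PDGF-DD alone. Spp1 (osteopontin) had 9422, 9217, 11973 and 9726 (1.06-fold apart).

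Because the vehicles are not divided out, each difference between the factors was set beside the difference between the vehicles. Of the 912 genes higher with IL-1b, 138 (15.1%) had vehicles at least 2-fold apart the same way, 662 (72.6%) had vehicles less than 2-fold apart, and 112 (12.3%) had vehicles at least 2-fold apart the other way. Of the 745 lower genes these numbers were 275 (36.9%), 457 (61.3%) and 13 (1.74%). Genes such as Mki67 stood among the 275, and genes such as Orm1 and Cd74 among the 112. Of 810 genes above the floor on all 4 arrays whose vehicles were at least 2-fold apart, 396 were less than 2-fold apart between the factors and 94 within 1.2-fold. The gap junction gene Gja4 had 741, 152, 93.2 and 173 (7.95-fold apart in the vehicles and 1.14-fold in the factors), Hopx 1501, 419, 288 and 386 (5.20-fold and 1.09-fold), and Akr1b8 62.4, 1470, 558 and 1744 (8.95-fold and 1.19-fold). The labels do not say whether a factor array and its vehicle share a culture or a day, and how much of a difference the vehicles carry was not tested.

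**Figure D4:**
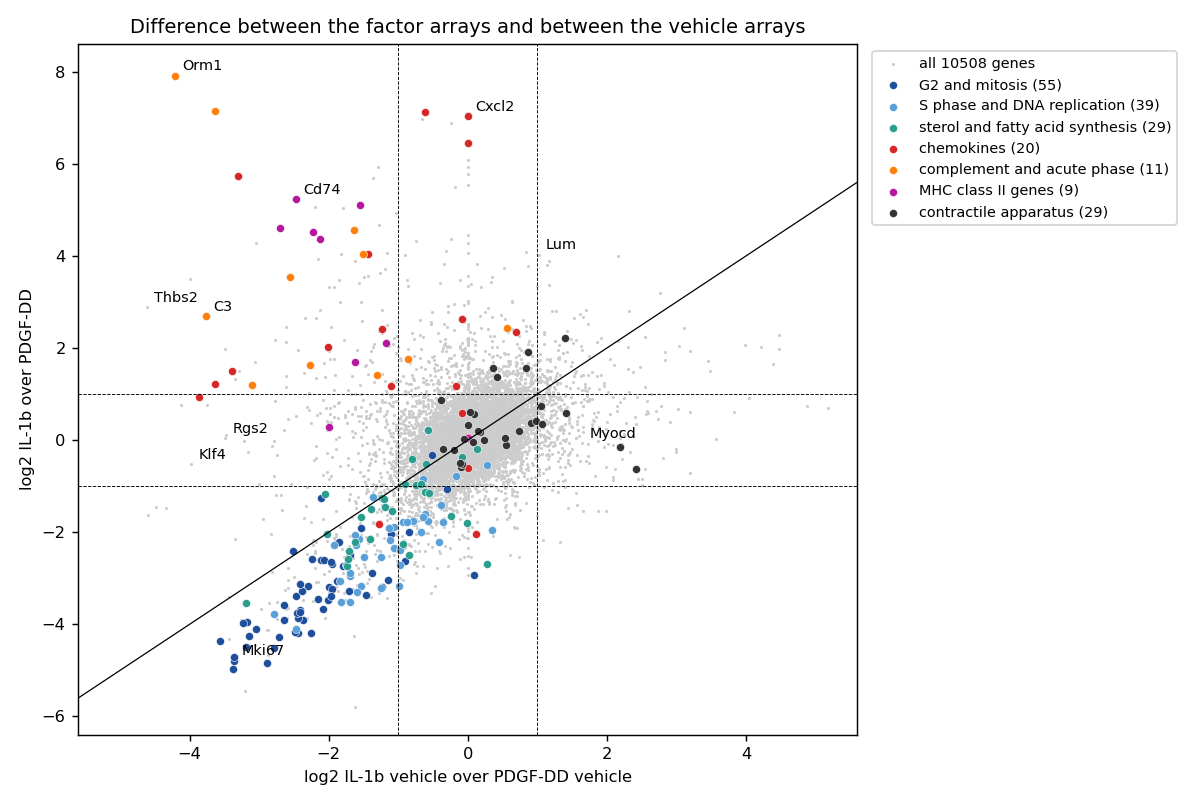
Log2 ratio of IL-1b over PDGF-DD (vertical axis) against the log2 ratio of the IL-1b vehicle over the PDGF-DD vehicle (horizontal axis), 1 point per gene, with members of 7 lists coloured; the solid line marks equal differences and the dashed lines 2-fold. Mki67 lies at -4.79 against -3.36 in the vehicles, Orm1 at 7.91 against -4.21 and Lum at 4.02 against 1.02.

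Few genes had the factor arrays on opposite sides of both vehicles by at least 2-fold each. IL-1b was above and PDGF-DD below both vehicles for 11 of 10885 genes (0.101%), and PDGF-DD above and IL-1b below for 5 (0.0459%). Enpp2 (autotaxin), which makes lysophosphatidic acid, had 81.6, 1687, 209 and 32.8 (51.4-fold), and it was joined by Angptl4, Lum, Lnx1 with 165, 1213, 371 and 72.3, Clmp with 157, 639, 87.6 and 37.4, and Rerg with 225, 564, 99.7 and 38.0. The 5 on the PDGF-DD side included Zfp367, with 189, 91.9, 427 and 987 (10.7-fold), and the kinase Tnik, with 205, 73.6, 200 and 426 (5.78-fold). The others were the DNA polymerase subunit Pole, with 70.2, 31.3, 139 and 281 (8.97-fold), Fam83d, with 66.5, 32.3, 92.2 and 288 (8.93-fold), and the replication fork protein Timeless, with 82.6, 31.3, 101 and 207 (6.63-fold). In Pole, Fam83d and Timeless the IL-1b array was barely above the floor of 28.1. These classes depended on the floor. The PDGF-DD side held 0 genes with the floor at the 60th percentile, 0 with an offset of 32 in its place and 8 with the floor at the 20th percentile. The IL-1b side held 4, 5 and 27.

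More genes had both factors on the same side. Both factors were at least 2-fold above both vehicles for 41 genes (0.377%) and at least 2-fold below both for 93 (0.854%). Slc7a11, Ripk2, Il11 and Il1rl1 were among the former, with the adaptor Shc4 at 4.65, 126, 38.3 and 126 and uridine phosphorylase Upp1 at 2.82, 878, 137 and 434. Acta1, Rgs4 and Fbxl22 were among the latter, with cardiac troponin C, Tnnc1, at 6597, 321, 3243 and 205, the secreted protein gene Wfdc1 at 1061, 59.5, 587 and 57.3, and the collagen-binding integrin Itga11 at 984, 121, 990 and 59.6. Tnnc1 and Wfdc1 ended 1.57-fold and 1.04-fold apart between the factors. The contractile list held 15 of the 93 genes and the MAP kinase feedback list 4 of the 41. With IL-1b alone, 252 genes (2.32%) lay at least 2-fold above the other 3 arrays and 59 (0.542%) below them. With PDGF-DD alone the numbers were 259 (2.38%) and 156 (1.43%).

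Agreement between probe sets of a gene could be read for part of the list, and the text above gives further probe sets for some genes only. Of the 1657 genes at least 2-fold apart, 478 had another measured probe set, and for 218 of these all the others were at least 2-fold apart the same way. For 42 a probe set had the other sign, and for 4 it was at least 2-fold apart the other way.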

How the data were processed

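The authors deposited 1 linear intensity per probe set and array, which per the submitters' processing notes came from MAS5. For its scaling target and version, the sources used here state nothing. Members and lists were chosen with earlier results of these data known. Each array was rescaled so that the trimmed means of all arrays were equal (factors 0.951 to 1.03). Values under the 40th percentile (28.1) were set to it, and log2 was taken. Probe sets were named through GEO's platform annotation: 20832 had 1 symbol, 436 several and 9831 are not listed there. Of the named probe sets 20764 matched RefSeq, and each gene was read from its probe set with the highest mean log2 value over the 4 arrays. A gene was measured where 1 of the arrays compared exceeded the floor. With 1 array per group no test was possible, so a fixed rule of at least 2-fold was used, and "at least" folds take the floor for the dim array. List medians hold genes at the floor at their bound.

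Genes were named by rule: the 12 highest and 12 lowest ratios above the floor on both arrays; up to 6 each way with 1 array at the floor; the 6 largest each way on opposite sides, or on the same side, of both vehicles; the 6 each way with vehicles farthest apart but factors less than 1.2-fold apart; up to 5 per list; and fixed markers. The counting was tested on simulated data. Python 3.11.15, numpy 2.4.6, pandas 2.3.3 and matplotlib 3.10.9 were used. Alternatives covered scaling, floor, offset, probe set choice and the filter.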

Additional observations from a re-analysis of the deposited data

Results flagged for a closer look

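Probe sets with no single gene name were not used in the comparisons by gene, only in the count over all probe sets. They too held differences of at least 2-fold. Of 5150 such probe sets above the floor with IL-1b or PDGF-DD, 391 stood at least 2-fold above PDGF-DD with IL-1b and 307 at least 2-fold below it, 13.6% in all, which is the reason they are listed. Between the vehicle arrays 290 of 5175 were higher and 203 lower on the IL-1b side, 9.53%. Only those above the floor on both factor arrays were ranked. Among these, the one with the widest higher difference had 7.73, 1906, 50.7 and 36.1 in the order used above (52.7-fold higher with IL-1b). The one with the widest lower difference had 49.3, 29.1, 726 and 1697 (58.4-fold lower).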

How the results depend on the processing

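No paired analysis was possible because each group is 1 array, and for the same reason no array could be left out. With the floor at the 20th percentile, 1679 genes met the 2-fold rule on the IL-1b side and 2026 were apart between the vehicles; the higher genes had vehicles apart the same way in 302, less than 2-fold apart in 1181 and the other way in 196, and 61 lower genes had vehicles the other way. Opposite sides of both vehicles held 27 genes (IL-1b above) and 8 (PDGF-DD above), both factors above held 89, and the medians of MHC class II, integrins, fibroblast markers and epithelial markers were 3.76, 0.82, 1.43 and 1.28. With the floor at the 60th percentile the same counts were 561, 633, 70, 424, 67 and 5, with 160 lower genes having vehicles apart the same way; the sides held 4, 0 and 23 genes, and the medians of MHC class II, G2 and mitosis, WNT and fibroblast genes were 2.83, -2.59, 2.20 and 1.43. An offset of 32 in place of the floor gave 82 higher genes with vehicles the same way, 7 lower ones with vehicles the other way, 5, 0 and 23 genes on the sides, and 3.72 for MHC class II. The median over probe sets of a gene gave 2.10 for MHC class II and reversed RT1-Ba to -0.07. Counting all probe sets gave 1610 higher, 1498 lower and 2049 between the vehicles. The cause of these moves was not tested, beyond the number of features each setting admits. Of 290 list medians under the alternatives, 280 moved little, and of 1733 values of named genes 1644 kept their side of 2-fold. Values near the floor are limited by signal over background.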
